A study of Homo sapiens with 2 samples.

Results

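RAB small GTPases are the largest branch of the RAS superfamily and give each membrane compartment of the secretory and endocytic pathways its identity. A RAB protein binds GTP on the membrane, recruits effectors such as tethers and motors, and is switched off when GTP is hydrolysed. Exchange factors load GTP, GTPase-activating proteins speed its hydrolysis, escort proteins and geranylgeranyl transferase attach the lipid anchor, and GDP dissociation inhibitors extract the inactive form from the membrane. The mRNAs of this family were followed in RNA that co-precipitated with LRPPRC, a pentatricopeptide repeat protein that binds RNA and is best known for stabilizing mitochondrial mRNAs.

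The members were the rows named RAB, a number and an optional letter with or without a digit, and 61 of the 21262 rows (16802 of them named) met this rule. All 61 are annotated as protein-coding. Both libraries come from wild-type A549 cells, an epithelial line of lung adenocarcinoma, and lysates were incubated with 2 μg of anti-LRPPRC antibody. The series description calls the 2 replicates technical and the paper calls them biological, so the spread between them may be technical. Levels are in FPKM, which divides the fragments of a gene by transcript length and by library size. There was 1 condition, and neither input nor IgG samples were analysed here, so the level of a transcript in the cell and its association with LRPPRC cannot be told apart, and no test between conditions was possible. The keratins KRT8 and KRT18 were high, KRT8 at 339 and 335 FPKM and KRT18 at 50.6 and 51.7 in replicates 1 and 2. KRT19 was lower, at 12.6 and 11.6 FPKM, and the epithelial markers EPCAM and CDH1 had between 0.402 and 1.35 FPKM. The listed endothelial markers (3 of 3 with a row) summed to 0.536 FPKM in replicate 1 and 0.902 in replicate 2, the fibroblast markers (3 of 3) to 2.33 and 2.18, and the 1 leukocyte marker of 3 with a row, CD14, to 0.266 and 0.321. The mRNA of LRPPRC had 180 ± 5.51 FPKM (SD, n = 2).

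RAB mRNAs covered a wide range of levels in LRPPRC RIP, with a small set of members at the top. RAB8A, which directs vesicles to the plasma membrane and the primary cilium, was the highest at 62.5 ± 0.644 FPKM (SD, n = 2) and ranked 527 among the named rows. Of the 61 members, 9 (14.8%) had a mean above FPKM 30, the threshold of the study, against 8.45% of all named rows. A mean of at least 1 FPKM was reached by 42 members (68.9%), against 63.3% of named rows. A further 9 members lay between 10 and 30 FPKM, 24 between 1 and 10, and 19 below 1. The median was 2.48 FPKM for the members and 2.47 for all named rows, and the upper quartile was 13.7 FPKM for the members and 9.45 for all named rows. The share of members above the threshold was thus higher than the background, though RAB14 and RAB10 stood at only 30.1 FPKM by mean. The middle of the family was at the level of the named rows, which, unlike the members, were not limited to protein-coding genes. The order turned round at a stricter threshold, where 1 member (1.64%) was above FPKM 50, against 4.29% of named rows. At FPKM 20 there were 12 members (19.7%), against 13.1% of named rows. Among rows with at least 1 FPKM in both libraries, 9 of 41 members (22%) were above 30, against 13.6% of 10449 named rows. No test was made of these shares, since the members are not replicates.

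The family summed to 622 FPKM in replicate 1 and 617 in replicate 2, which is 0.317% of the FPKM of all 21262 rows in each library. Among the named rows alone, the members held 0.323% of the FPKM in replicate 1 and 0.324% in replicate 2, and were 0.363% of the rows. The 9 members above FPKM 30 held 58.5% of the family's FPKM in replicate 1 and 58.9% in replicate 2. Grouped by role, the RABs of recycling and constitutive exocytosis held 28.8% and 29.6% in replicates 1 and 2, those of ER and Golgi traffic 25.8% and 25.3%, those of the early endosome 19.2% and 18.9%, those of the late endosome and lysosome 14.2% in both, and those of regulated secretion 10.6% and 10.4%. The members were assigned to these groups from textbook roles, and each member was placed in 1 group although several act at more than 1 membrane.

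**Figure D1:**
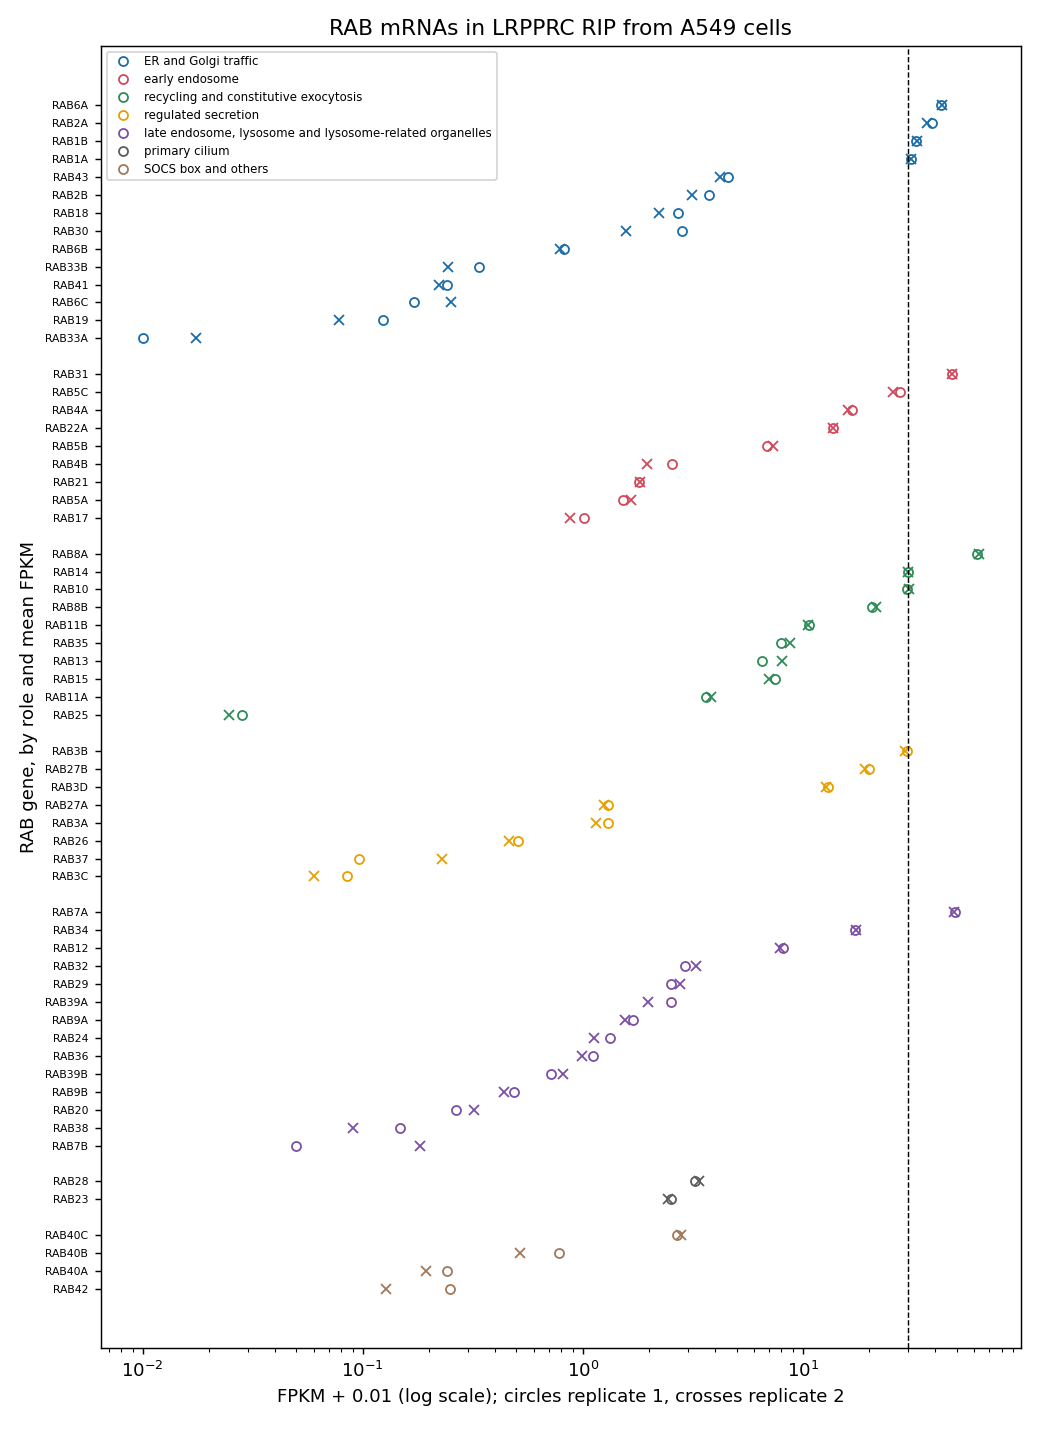
FPKM plus 0.01 (x axis, log scale) of the 61 RAB mRNAs in LRPPRC RIP, grouped by role and ordered by mean within each group (y axis). Replicate 1 is drawn as circles and replicate 2 as crosses, and the dashed line marks FPKM 30, which 9 members exceed by their mean. Every role has members below 3 FPKM.

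Among RABs of ER and Golgi traffic, 4 of 14 were above FPKM 30, against 8.45% of all named rows. The role groups are small, and their counts above FPKM 30 were not tested against this share or each other. The median of the ER and Golgi group was 2.32 FPKM. RAB6A, which controls traffic within and from the Golgi, had 42.5 FPKM in replicate 1 and 43.0 in replicate 2. RAB2A, a RAB of the ER to Golgi intermediate compartment, had 38.7 and 36.8 FPKM. RAB1B and RAB1A, which act in transport from the ER to the Golgi, had 32.6 and 32.9 FPKM, and 31.1 and 31.2 FPKM. These 4 members had means from 42.7 to 31.1 FPKM, and the values of neighbours in this order did not overlap between the libraries. The next member of the group was RAB43, with 4.58 and 4.21 FPKM, so the group had a gap between 31.1 and 4.40 FPKM by mean. RAB18, a RAB of the ER and of lipid droplets, had 2.70 and 2.20 FPKM, and RAB30, a Golgi RAB, had 2.83 and 1.57. RAB6B, RAB33B, RAB41, RAB6C, RAB19 and RAB33A were below 1 FPKM in both libraries, and RAB33A was listed at 0 in replicate 1 and at 0.00756 in replicate 2.

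Among the early endosomal RABs, 1 of 9 was above FPKM 30, a count too small to set apart from the 8.45% of all named rows. The median of 7.11 FPKM was above that of the ER and Golgi group. RAB31, which acts between the trans-Golgi network and endosomes, had 47.7 FPKM in replicate 1 and 47.9 in replicate 2, the third highest mean of the family. RAB22A, its closest relative, had 13.7 FPKM in both libraries. The RAB5 isoforms, which define the early endosome, were unequal, with RAB5C at 27.6 and 25.7 FPKM, RAB5B at 6.90 and 7.32, and RAB5A at 1.51 and 1.64. RAB4A, a RAB of rapid recycling, had 16.7 and 16.1 FPKM, against 2.53 and 1.96 for RAB4B. RAB21, which regulates integrin traffic, had 1.79 and 1.81 FPKM.

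RABs of recycling and constitutive exocytosis had 3 of 10 members above FPKM 30, against 8.45% of all named rows. Their median, 9.48 FPKM, was the highest of these groups. RAB8A stood at 62.1 FPKM in replicate 1 and at 63.0 in replicate 2, and RAB8B, its paralog, at 20.7 and 21.4. RAB14, which acts between the Golgi and endosomes, had 30.1 and 30.2 FPKM, and RAB10, a RAB of polarized exocytosis, had 29.9 and 30.3. RAB14 and RAB10 overlapped in their libraries and stood at the threshold itself, so their call rests on a difference of less than 1 FPKM. The RABs of the recycling endosome were lower, with RAB11B at 10.7 and 10.6 FPKM and RAB11A at 3.63 and 3.82. RAB25, the epithelial member of the RAB11 group, had 0.0182 and 0.0148 FPKM. RAB35, RAB13 and RAB15 lay between 6.49 and 8.72 FPKM in both libraries.

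In the late endosomal and lysosomal group 1 of 14 members was above FPKM 30, near the 8.45% of all named rows. The median was 1.42 FPKM. RAB7A, the main RAB of late endosomes and lysosomes, had 49.3 FPKM in replicate 1 and 48.7 in replicate 2, the second highest mean of the family. RAB34, which takes part in lysosome positioning and in ciliogenesis, had 17.2 and 17.5 FPKM, and RAB12 had 8.15 and 7.90. RAB32, a RAB of lysosome-related organelles, had 2.91 and 3.26 FPKM, and its paralog RAB38 had 0.138 and 0.0808. RAB9A, which acts in the return of mannose 6-phosphate receptors to the Golgi, had 1.68 and 1.55 FPKM. RAB7A was thus separated from the rest of its group by the gap between 48.7 and 17.5 FPKM.

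None of the 8 RABs of regulated secretion had a mean above FPKM 30, a group too small to set apart from the 8.45% of all named rows. The median was 1.24 FPKM. RAB3B, one of the RABs of secretory granules, came nearest from below, with 29.6 FPKM in replicate 1 and 29.1 in replicate 2. RAB27B, which docks secretory granules and exosomes at the plasma membrane, had 19.9 and 19.1 FPKM, and RAB3D had 13.0 and 12.7. RAB27A, the gene of Griscelli syndrome, had 1.29 and 1.24 FPKM, RAB3A had a mean of 1.22, and RAB26, RAB37 and RAB3C were below 0.5 in both libraries. The ciliary RABs RAB23 and RAB28 lay between 2.44 and 3.37 FPKM. Of the remaining 4 members, RAB40C, which carries a SOCS box for ubiquitination, had 2.68 and 2.79 FPKM and RAB42, RAB40A and RAB40B were below 1. Nearest to the threshold from above were RAB10, RAB14 and RAB1A, with means from 30.1 to 31.1. Nearest from below were RAB3B, RAB5C and RAB8B, with means from 29.4 down to 21.0, so that RAB8B was well under it.

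In each of 16 groups of RAB paralogs, 1 member was higher than the others in both libraries. Between neighbours in these groups the libraries overlapped in none of the 22 pairs. The pairs were ordered by mean first, and no such count was made for other genes. The lack of overlap can therefore not be read as particular to paralogs. In 7 of the 16 groups the highest member held more than 80% of the group's FPKM. These include RAB33B with RAB33A, a group whose summed mean was 0.285 FPKM, so that its share is not well determined. The widest gap was that of RAB7A to RAB7B among groups with no value at 0, and RAB7B had 0.0399 FPKM in replicate 1 and 0.172 in replicate 2. The ratio of RAB7A to RAB7B was therefore 1236 in replicate 1 and 284 in replicate 2, and its size is not well determined. The ratio of means was 53.7 for RAB6A to RAB6B, 15.4 for RAB27B to RAB27A, 11 for RAB2A to RAB2B and 7.31 for RAB4A to RAB4B. It was smaller for RAB31 to RAB22A, at 3.49, RAB8A to RAB8B, at 2.97, RAB11B to RAB11A, at 2.86, and RAB3B to RAB3D, at 2.28. RAB1B and RAB1A were nearly equal, with a ratio of 1.05. The remaining low groups followed the same form, with RAB32 at 28.2 times RAB38 (21.0 in replicate 1 and 40.4 in replicate 2), RAB40C at 4.27 times RAB40B (3.48 and 5.46), RAB9A at 3.56 times RAB9B and RAB39A at 2.97 times RAB39B. Non-overlap of 2 libraries describes these libraries and is not a test between genes. The size of these ratios also rests on the division by length. With FPKM multiplied by transcript length, 18 of the 22 changed in size and 2 turned round.

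**Figure D2:**
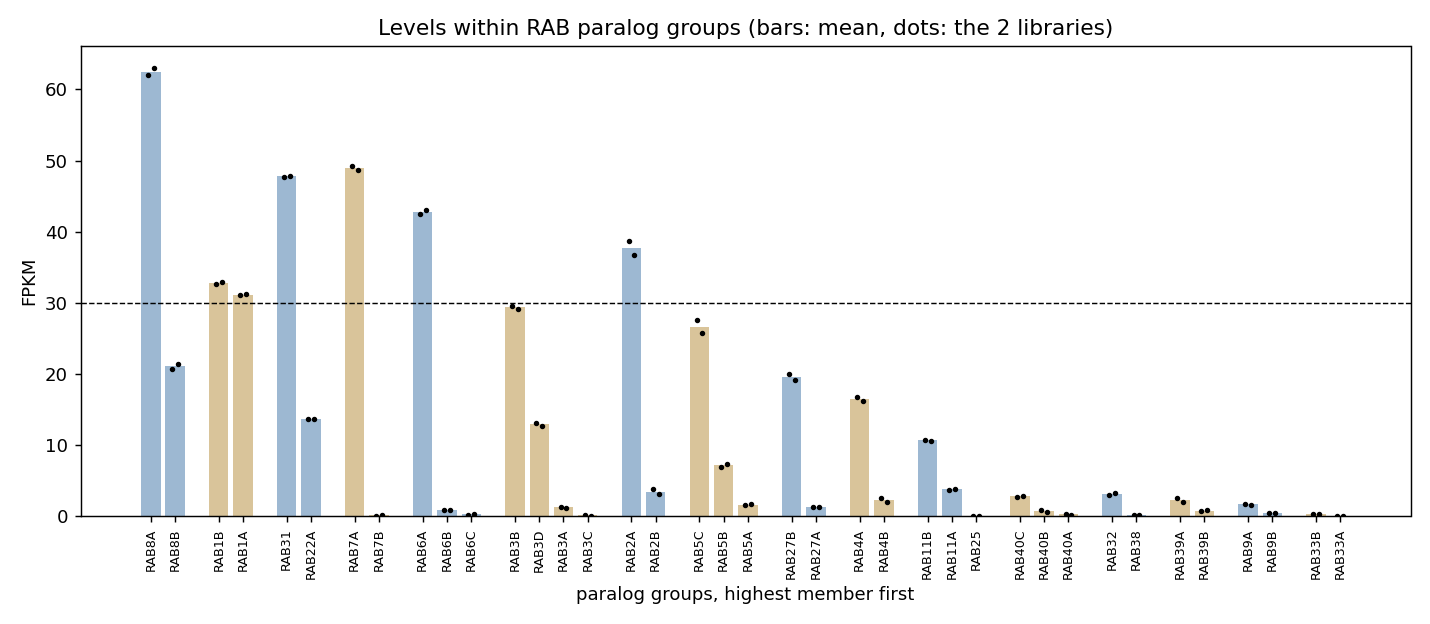
FPKM (y axis, from 0) of RAB paralogs, in 16 groups ordered by their summed mean, with the highest member first in each group (x axis). Bars are means, dots are the 2 libraries, and the dashed line is FPKM 30. RAB1B and RAB1A are the pair with nearly equal bars, whereas RAB7A and RAB6A stand far above their paralogs.

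The pairs differ in sequence, which bears on how well reads can be told apart. Only coding sequences were compared, with a median length of 651 bases over the members. The 3′ UTRs, with a median of 2101 bases, were not compared. Coding sequences of the 22 pairs were between 59.3% and 89.2% identical, with a median of 72.5%. The stretch that encodes the phosphate-binding loop, which holds GTP and is among the most conserved parts of the family, shows this for RAB1, RAB8 and RAB6. It is given for reference transcripts of GENCODE 44, with 30 coding bases per gene, and capitals mark bases that differ from the first gene of each set. For RAB6C, whose loop does not match the motif of the family, the same position is shown.
RAB1A: attggcgactcaggggttggaaagtcttgc
RAB1B: attggcgactcaggCgtGggCaagtcAtgc
RAB8A: atcggggactcgggggtggggaagacctgt
RAB8B: atcggCgactcgggggtAggCaagacctgC
RAB6A: ctgggggagcaaagcgttggaaagacatct
RAB6B: TtgggggagcaGagcgtCggGaagacGtct
RAB6C: ctgggggagcaaagcgttgCaaagacatct
The first base of RAB1A is coding base 49, that of RAB1B, RAB8A and RAB8B is coding base 40, and that of the RAB6 genes is coding base 55, counted from the start codon. RAB1A lies on chromosome 2 of GRCh38 from 65070696 to 65130331 (minus strand), RAB1B on chromosome 11 from 66268590 to 66277492 (plus strand), RAB8A on chromosome 19 from 16111889 to 16134234 (plus strand) and RAB8B on chromosome 15 from 63189560 to 63267776 (plus strand). RAB6A lies on chromosome 11 from 73675638 to 73761137 (minus strand), RAB6B on chromosome 3 from 133824235 to 133895882 (minus strand) and RAB6C on chromosome 2 from 129979666 to 129982738 (plus strand). RAB1B differed from RAB1A at 4 of the 30 bases, RAB8B from RAB8A at 4, RAB6B from RAB6A at 5 and RAB6C from RAB6A at 1. RAB6C is a gene of 1 exon, and its coding sequence shared a run of 85 identical bases with that of RAB6A. Over its whole length it was also 99.5% identical to RAB6D. The 0.161 and 0.243 FPKM listed for RAB6C are therefore uncertain. Of the 61 members, 9 had an annotated copy with 90% identity or more across 50% or more of the coding sequence, namely RAB1A, RAB1B, RAB5A, RAB6A, RAB6C, RAB13, RAB40A, RAB40B and RAB43. The levels of these 9 are uncertain, and the sources used here do not give how shared reads were assigned. Members above FPKM 30 among them were RAB1A, whose copy RAB1AP1 was 93.5% identical, RAB1B, whose copy RAB1C was 96.9% identical, and RAB6A, whose copy RAB6D was 92.0% identical. By gene span, introns included, 38 of the 61 members also overlap an annotated gene on the other strand. A further count gave 20 that overlap one on the same strand, among them RAB8A (with HSH2D) and RAB4B (with MIA-RAB4B and RAB4B-EGLN2). Whether exons are shared was not checked. Where they are, reads on the same strand may not be told apart. Those on opposite strands may not be either, since use of strand is not stated.

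FPKM is a level per length, and RAB transcripts differ in length through their 3′ UTRs rather than their coding sequences. Coding sequences ran from 585 to 1023 bases, and 3′ UTRs from 130 to 14613 bases. The 9 members above FPKM 30 had 3′ UTRs of 1254 to 3263 bases, with a median of 2260, and the 52 other members had a median of 2012.5, with a range of 130 to 14613. Among the 41 members with at least 1 FPKM in both libraries, the Spearman correlation of 3′ UTR length with FPKM was 0.12, against 0.05 over 9794 protein-coding genes at the same minimum. That correlation is across genes, which share the libraries and are not replicates, and describes a weak relation. Multiplied by transcript length in kb, which approximates the share of fragments, the order changed. RAB3B, with a transcript of 12780 bases, was the highest at 375, followed by RAB31 at 187, RAB8A at 161, RAB6A at 142, RAB2A at 141 and RAB27B at 137. Of the 9 highest members by FPKM, 6 were also among the 9 highest by this product. RAB27B and RAB22A, at 118, entered with RAB3B, and RAB7A, RAB1B and RAB1A left. RAB10 and RAB7A, at ranks 9 and 10, were equal to 3 digits at 107. RAB21, with the longest transcript of the family at 15558 bases, reached 28.0. Since these lengths come from GENCODE 44 and not from the deposited table, the product is an approximation.

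**Figure D3:**
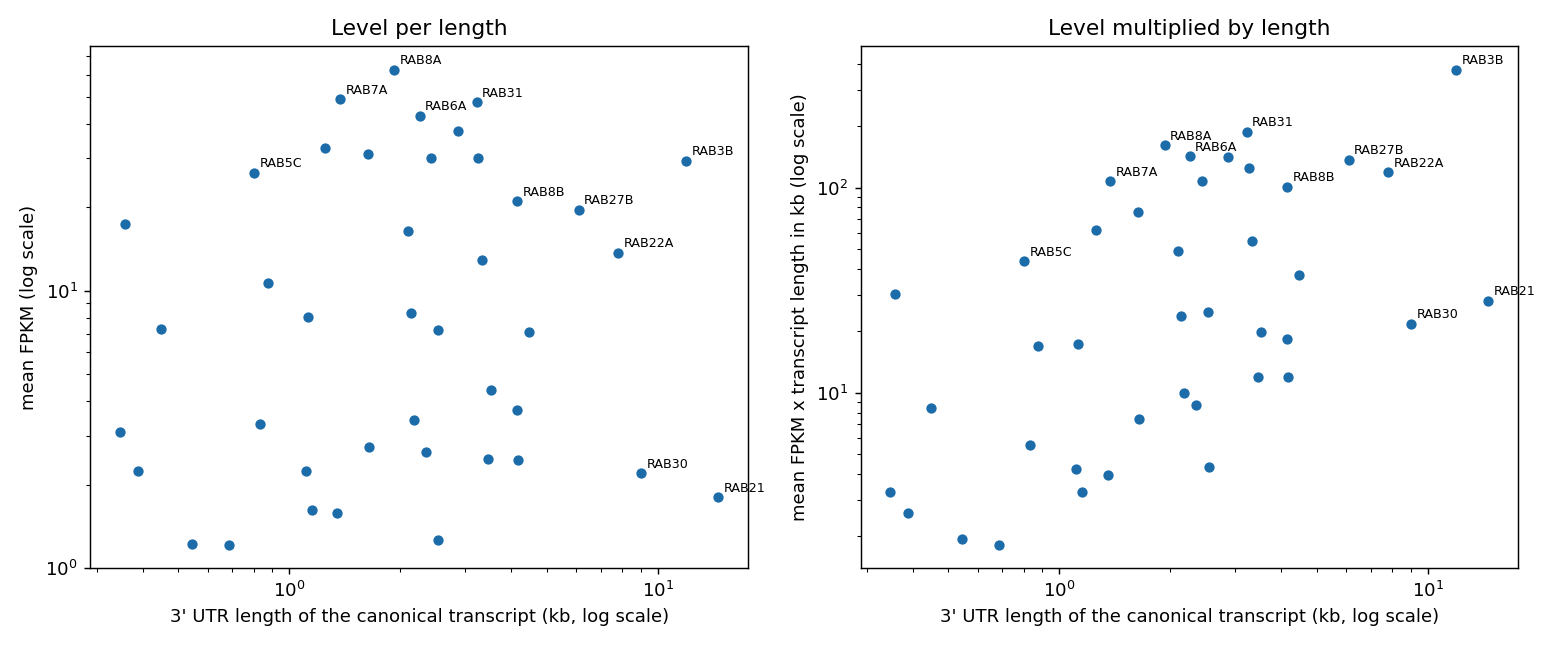
Mean FPKM (left, y axis, log scale) and mean FPKM multiplied by transcript length in kb (right, y axis, log scale) against the 3′ UTR length of the canonical transcript in kb (x axis, log scale) for the 41 RAB mRNAs with at least 1 FPKM in both libraries. Each point is a gene. RAB3B, just below FPKM 30 on the left, is highest on the right.

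The libraries gave nearly the same values for abundant RABs. Among the 42 members with a mean of at least 1 FPKM, the median absolute difference of log2(FPKM + 1) between the libraries was 0.0536, against 0.0555 for all 10639 named rows at that level. The median coefficient of variation was 3.08% for the members and 3.27% for the named rows. For the 9 members above FPKM 30 the median absolute difference was 0.02. Only RAB30 of these 42 members (2.38%) differed by more than 1.5 times, with 2.83 FPKM in replicate 1 and 1.57 in replicate 2, against 2.07% of named rows. The next largest differences on this scale were those of RAB13, higher in replicate 2, at 7.24 ± 1.07 FPKM (SD, n = 2), RAB4B, at 2.53 and 1.96, RAB39A, at 2.52 and 1.97, and RAB18, at 2.70 and 2.20. Below 1 FPKM, 8 of 19 members (42.1%) differed by more than 1.5 times, against 46.6% of the 6162 named rows with a mean above 0 and below 1. In the order of the 42 members by mean, 18 of 41 neighbouring pairs overlapped between the libraries. Of the first 18 pairs, from RAB8A to RAB35, RAB14 and RAB10 were the single pair that did. No such count was made over all named rows.

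**Figure D4:**
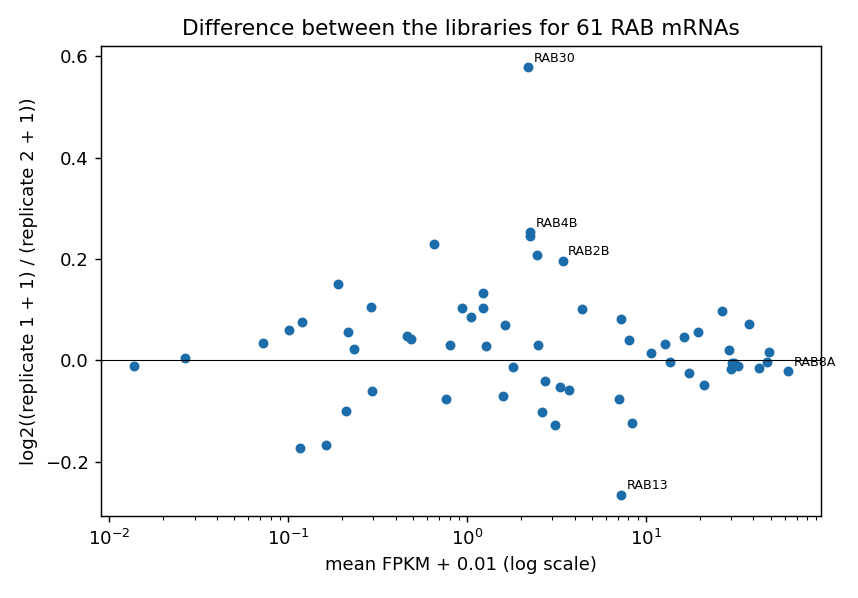
Difference of log2(FPKM + 1), replicate 1 minus replicate 2 (y axis), against mean FPKM plus 0.01 (x axis, log scale) for the 61 RAB mRNAs. Each point is a gene, and the line marks equal values. RAB30 lies highest and RAB13 lowest, and members at high FPKM lie near 0.

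The mRNAs of the proteins that run the RAB cycle were present at moderate levels. GDI2, a widely expressed GDP dissociation inhibitor, was above every RAB, at 104 and 99.8 FPKM in replicates 1 and 2. The escort proteins CHM and CHML had 8.49 and 8.39 FPKM, and 3.99 and 5.54 FPKM. The catalytic subunit of the geranylgeranyl transferase, RABGGTB, had 5.77 and 6.38 FPKM. The other subunit, RABGGTA, was the lowest of the list at 1.02 and 1.20 FPKM, and RABIF, which binds nucleotide-free RABs, had 5.64 and 5.27. Of the 6 genes of this list reported here 1 was above FPKM 30 and the median was 5.77 FPKM. Of 47 exchange factors with a row, 4 were above 30 (8.51%), with TRAPPC1, a subunit of the TRAPP complexes, at 47.7 and 52.3 FPKM, GAPVD1, an activator of RAB5, at 43.4 and 42.9, and DENND5B at 41.6 and 40.6. Of 38 GTPase-activating proteins, 4 were above 30, with RAB3GAP1 at 39.3 and 40.8 FPKM, RABGAP1 at 33.3 and 34.4, and USP6NL, which acts on RAB5, at 32.6 and 33.6. Of 65 effectors and tethers, 5 were above 30 (7.69%), with the Golgi stacking protein GORASP2 at 92.4 and 94.6 FPKM, the ER to Golgi tether USO1 at 82.5 and 81.5, and KIF20A, a kinesin first described as a RAB6 partner, at 56.2 and 55.6. The medians of the exchange factors, the GTPase-activating proteins and the effectors were 7.14, 6.20 and 7.51 FPKM, each above the 2.48 FPKM of the RABs. Their shares above FPKM 30 lay near the 8.45% of all named rows.

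Other small GTPases showed the same form, a few abundant members above many low ones. Of 27 RAS members 2 were above FPKM 30, NRAS at 68.4 and 68.3 FPKM and RRAS2 at 42.8 and 41.6, with RHEB next at 25.3 and 24.7. Of 26 ARF members 2 were above it, ARF1 at 86.1 and 81.0 and ARF4 at 40.6 and 39.3, with ARF6 next at 21.9 and 20.9. The medians were 3.72 FPKM for RAS and 5.89 for ARF. Above the threshold were thus 9 of 61 RAB (14.8%), 2 of 27 RAS (7.41%) and 2 of 26 ARF members (7.69%). The share of all named rows was 8.45%, near those of the RAS and ARF members.

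**Figure D5:**
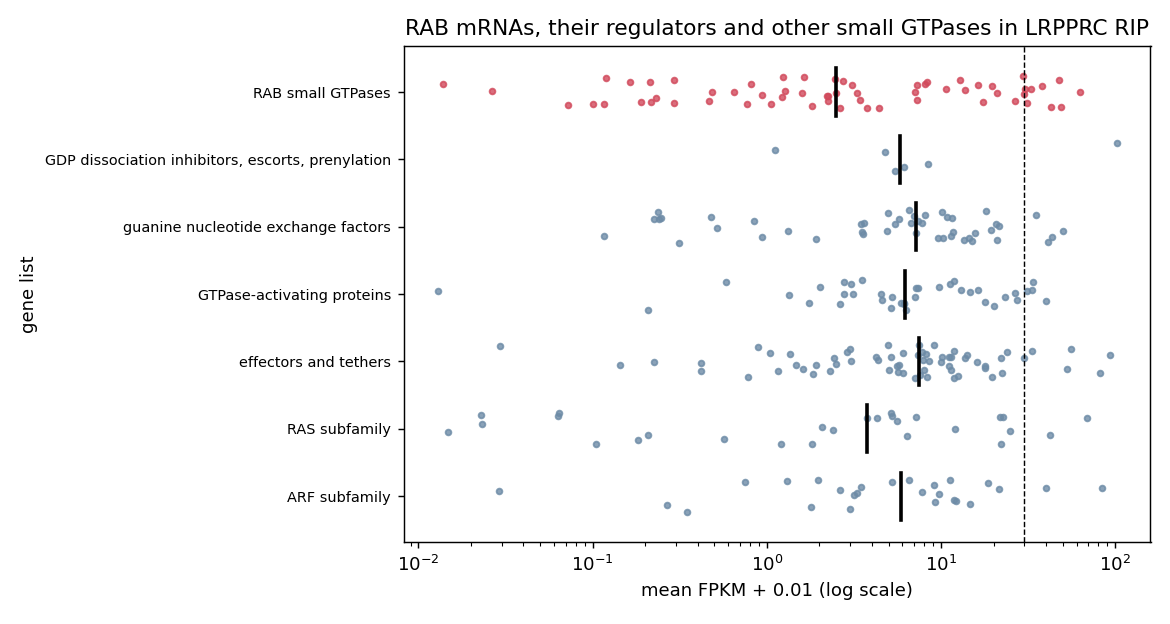
Mean FPKM plus 0.01 (x axis, log scale) of the RAB mRNAs (red), of 4 lists of proteins of the RAB cycle and of 2 other families of small GTPases (y axis, one row per list). Each point is a gene, black bars are medians, and the dashed line is FPKM 30. The RAB median, 2.48, is the lowest of the 7, and GDI2 is the point farthest to the right.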

How the data were processed

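RIP-seq of LRPPRC was measured in 2 libraries of A549 cells. The values the authors deposited are FPKM per gene in each library. Per the paper and the submitters' processing notes, adapters were removed with cutadapt 1.18, reads aligned to GRCh38 with HISAT2 2.1.0 and sorted with SAMtools, and transcripts quantified with StringTie 1.3.3b against Ensembl release 101. The kit is stranded, but whether quantification used strand is not given in these sources. Of the members, 38 overlap an annotated gene on the other strand by gene span, introns included.

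Depth is unknown. Of 5405 low genes (mean under 0.3 FPKM, no value at 0), no more than 1.41% had a common log2 ratio of the libraries to within 0.02. Whole reads could thus not be recovered and detection limits were left out. Means, SDs, ranks and counts above FPKM 30 (the study's threshold) were computed, and library differences used log2(FPKM + 1) at a mean of at least 1 FPKM. Canonical transcripts, lengths and coordinates are from GENCODE 44, matched by symbol (61 of 61 members). Copies were found with blastn 2.17.0. The functions were tested on simulated data. Some genes of the lists of regulators and other GTPases are not reported here.

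Members, roles, gene lists and alternatives were chosen with earlier results of these data known. Named genes are members above FPKM 30, the 3 nearest to it on each side, paralogs, the 5 largest library differences, members at 0, and the 3 highest of each other list with GDI2 and the escort and prenylation genes; further members named to complete a role were added after their values were seen. Alternatives were thresholds of 20 and 50 FPKM, single libraries, pseudocounts of 0.1 and 0.01, filters, TPM, and levels multiplied by transcript length. The software was Python 3.11.15, pandas 2.3.3, scipy 1.17.1, biopython 1.88 and matplotlib 3.10.9.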

Additional observations from a re-analysis of the deposited data

How the results depend on the processing

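The count of RAB members above FPKM 30 was 8 to 9 with a single library, and 1 at a threshold of 50 FPKM. RAB10 is the member lost in replicate 1 alone. The median of the family was 2.44 to 2.68 FPKM with a single library, 7.24 FPKM over members with at least 1 FPKM in both libraries, since low members are then left out, and 12.7 after scaling to TPM, which is a change of unit. The family's share of the summed FPKM was 0.324% with named rows alone in the denominator, and 0.317% with a single library. The summed FPKM was 617 to 622. The highest member of each paralog group was the same in all 16 groups in each library, and in 14 with FPKM multiplied by transcript length. In the other 2 groups the order turned round, with a log2 ratio of -0.29 for RAB1B to RAB1A and of -0.11 for RAB11B to RAB11A, since RAB1A and RAB11A have the longer transcripts. Of the 22 ratios between neighbours, 18 kept their order but changed in size, and 2 stayed within the SD of the libraries. RAB31 to RAB22A went from 3.49 to 1.58 and RAB8A to RAB8B from 2.97 to 1.59. RAB5C to RAB5B went from 3.75 to 1.17, whereas RAB3B to RAB3D went from 2.28 to 6.88. Over the regulators and the other families, 34 genes were above FPKM 20 and 8 above FPKM 50, against 18 above FPKM 30. With a single library the count was 18. No paired analysis was possible because a second condition is lacking. Without a known depth, no precision can be given for the 19 members below 1 FPKM.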

Other observations

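The 6 X-linked RABs (RAB9A, RAB39B, RAB9B, RAB41, RAB40A and RAB33A) were all low in LRPPRC RIP, with RAB9A the highest at 1.62 ± 0.0907 FPKM (SD, n = 2). Of them 1 had a mean of at least 1 FPKM, against 41 of 55 autosomal members. Over all named rows with an annotation, 61.1% of X-linked and 64% of other rows were at or above 1 FPKM. This comparison was chosen after the values were seen, and no test was made.

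ISY1-RAB43, an annotated read-through of ISY1 and RAB43, had 1.36 FPKM in replicate 1 and 0.0633 in replicate 2. RAB43, which overlaps ISY1-RAB43 on the same strand by gene span, had 4.58 and 4.21. RAB43 also has a processed pseudogene, RAB43P1, of 99.8% identity. RAB40AL, outside the family rule by its second suffix letter, had 0.208 and 0.171 FPKM, and its coding sequence shares a run of 302 bases with RAB40A, at 0.231 and 0.184 FPKM.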
